A study of Homo sapiens with 6 samples.

Results

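The transcripts described here are those of 10 circadian clock genes in BEAS-2B cells, a virus-immortalised line of human bronchial epithelium. They are PER1, PER2, PER3, CRY1, CRY2, CLOCK, NR1D1, NR1D2, DBP and TEF, found by symbol with 1 Ensembl identifier each among the 35019 identifiers of the expression table. All 10 passed the filter on low values that left 14188 genes for testing. Both groups of 3 libraries came from cells given RSL3, a covalent inhibitor of the lipid peroxidase GPX4 that is used to start ferroptosis, at 2 µM for 24 h. In 1 group, named RSL3+ID, indirubin (ID) had been added 2 h before RSL3. Indirubin is a bis-indole that inhibits kinases, GSK-3β among them, and binds the aryl hydrocarbon receptor. Its dose is given only as a range of 7.5 to 30 µM. The comparison asks what indirubin adds to RSL3. Libraries of untreated cells or of indirubin alone were not analysed here, so a changed response to RSL3 and an effect of indirubin itself cannot be told apart.

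The clock is a loop of transcription and repression that runs in most cells, airway epithelium included. CLOCK pairs with BMAL1 on E-box elements and drives the PER and CRY genes, whose proteins return to the nucleus and block that pair. The same pair drives NR1D1 and NR1D2, which encode the nuclear receptors REV-ERBα and REV-ERBβ, repressors of the BMAL1 gene. It also drives DBP, which with TEF and HLF activates genes through D-box elements. The labels give 1 time after RSL3 and name no step that sets the cells of a culture to a common phase. A lower mean level and a shifted phase of the rhythm therefore cannot be told apart, nor can less RNA per cell and fewer cells that express a gene.

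Expression is given as normalised counts, which are reads divided by the size factor of the library. Of the 10 clock genes, 9 had a negative log2 fold change (RSL3+ID over RSL3) and 1, CRY2, a positive one. None passed an adjusted p under 0.05 in limma, where 1.91% of all tested genes did (153 or 1.08% higher and 118 or 0.832% lower). At an unadjusted p under 0.05, 4 of the 10 were lower in RSL3+ID (PER3, NR1D1, NR1D2 and DBP) and none was higher, and 9.71% of all tested genes were lower by that measure. All 3 RSL3+ID libraries lay below all 3 RSL3 libraries for 5 genes (these 4 and PER2), as they did for 12.6% of all tested genes. They lay above for 1 gene, CRY2, as they did for 12.8% of all. The median log2 fold change of the 10 genes was −0.57, against −0.02 for all tested genes, of which 51.5% were negative. Since the 10 genes were chosen with results of these data known, no test was made over them as a group.

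**Figure D1:**
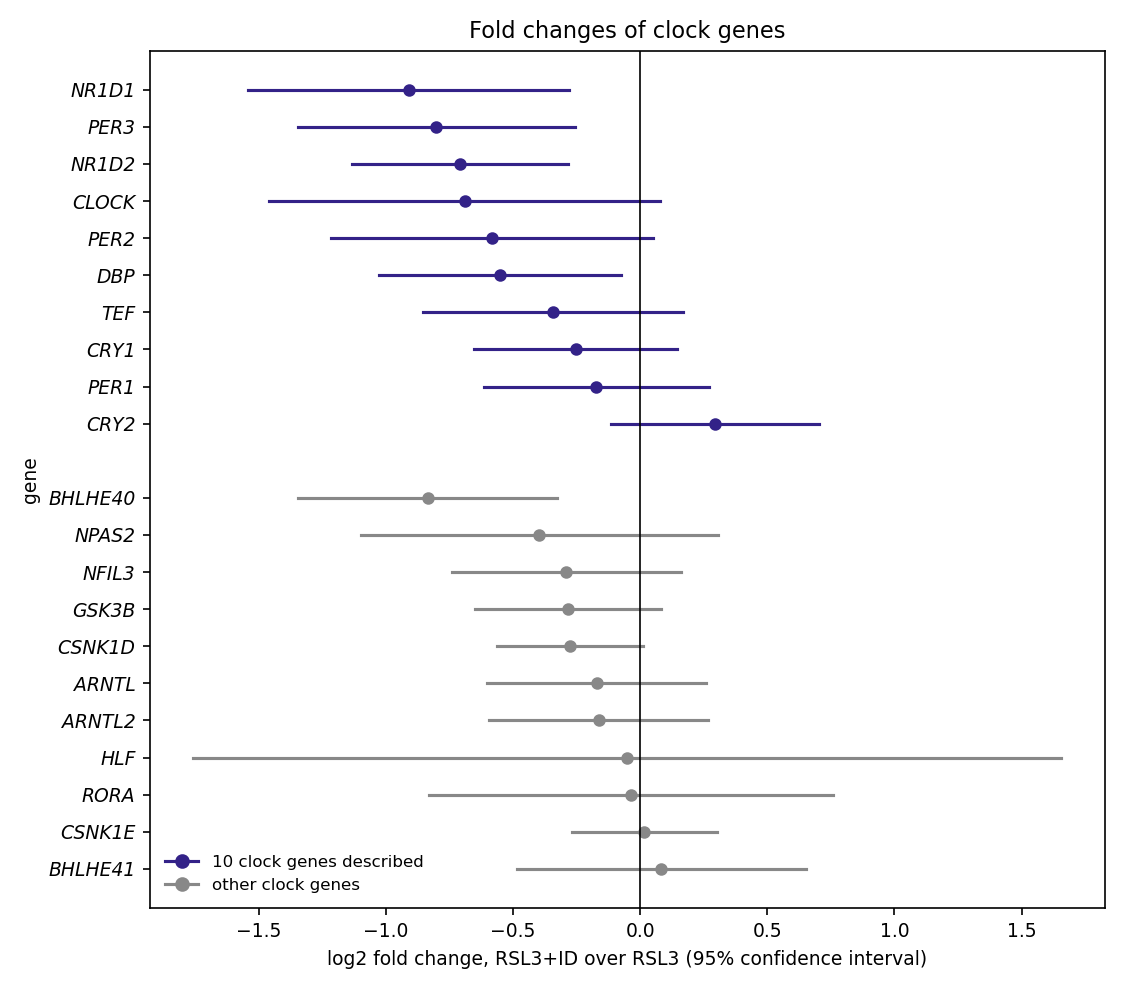
Log2 fold change of RSL3+ID over RSL3 with its 95% confidence interval from limma for the 10 clock genes (dark) and for 11 other clock genes (grey). The intervals of NR1D1, PER3, NR1D2 and DBP lie below 0, as does that of BHLHE40, and CRY2 has the highest estimate of the 10 at 0.29.

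The size of the background count rested on single libraries. Without RSL3+ID library 2, 742 genes were higher and 583 lower, and 270 of the 271 genes called with all libraries were among them. Without RSL3 library 1 or RSL3+ID library 1 no gene passed, and without RSL3 library 2, RSL3 library 3 or RSL3+ID library 3 between 0 and 1 genes were higher and between 2 and 4 lower. RSL3+ID library 2 stood apart on the second principal component of the 1000 most variable genes (26.4% of the variance), at −31.3 against 15.4 and 1.37 for the other libraries of its group.

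The promoters of the 10 genes were searched for the elements through which clock factors act, in the 250 bases before each RefSeq start (GRCh38.p14). Every gene matched, with 15 starts in all, and 35116 windows of that length served for comparison. Both strands were read. The E-box CACGTG, bound by CLOCK and BMAL1, was found before NR1D2, PER1 and TEF, at 4 of 15 starts, and in 6.34% of all windows. The variant E′-box CACGTT was found before CLOCK, CRY1, CRY2, NR1D1 and PER2, at 5 of 15 starts, and in 4.55% of all windows. The D-box TTATGTAA or TTACGTAA, the element of DBP, TEF and HLF, was found before NR1D2 and PER3 and in 0.94% of all windows. The letters TAGGTCA, the core of the element shared by REV-ERB and ROR receptors, were found before CRY2 and in 1.61% of all. The cAMP response element TGACGTCA was in none of the 15 windows and in 1.65% of all. These motifs share no letters with one another at any site found. A match is a run of letters, and no binding was measured.

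The stretches below hold matches to the E′-box, E-box or D-box, in capitals, for the NR1D and PER genes whose libraries did not overlap between groups, and for CRY2, the gene on the other side. They lie outside annotated exons and read 5′ to 3′ on the strand of the gene.
NR1D2 chr3:23945877-23946071 (+ strand): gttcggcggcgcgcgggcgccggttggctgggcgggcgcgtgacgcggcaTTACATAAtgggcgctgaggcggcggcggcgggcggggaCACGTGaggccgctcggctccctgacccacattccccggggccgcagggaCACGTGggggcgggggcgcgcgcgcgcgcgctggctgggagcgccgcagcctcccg
PER3 chr1:7784064-7784171 (+ strand): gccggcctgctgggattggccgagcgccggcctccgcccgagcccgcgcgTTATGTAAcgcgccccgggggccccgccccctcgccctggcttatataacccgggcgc
NR1D1 chr17:40100726-40100807 (- strand): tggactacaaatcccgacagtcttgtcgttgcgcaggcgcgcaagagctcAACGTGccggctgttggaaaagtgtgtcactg
PER2 chr2:238288752-238288857 (- strand): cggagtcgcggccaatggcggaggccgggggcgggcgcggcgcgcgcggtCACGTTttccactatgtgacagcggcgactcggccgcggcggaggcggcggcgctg
CRY2 chr11:45847282-45847342 (+ strand): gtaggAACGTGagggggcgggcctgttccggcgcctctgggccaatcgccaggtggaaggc
The NR1D2 stretch held the D-box, on the other strand, at −194 bases from the start, and E-boxes at −155 and −105. The PER3 D-box lay at −177. The E′-boxes of NR1D1, PER2 and CRY2 lay at −168, −197 and −188, on the other strand in NR1D1 and CRY2. The TAGGTCA of CRY2, at −65, lies outside the stretch shown. CRY2, at the opposite end of the fold changes, carried the same E′-box letters as NR1D1 and PER2. DBP, which was lower in RSL3+ID, had no match to any of the 5 elements in its window. Sequence outside the windows was not searched, so a missing match does not show that a gene lacks the element. Whether the matches bear on the fold changes was not tested.

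CLOCK, on chromosome 4 (GRCh38 55427903 to 55547138, minus strand), encodes the activator that opens the loop. It had 65.2, 165 and 113 normalised counts in RSL3 libraries 1, 2 and 3 and 68.6, 54.5 and 76.1 in RSL3+ID libraries 1, 2 and 3. RSL3 library 1 lay within the RSL3+ID range, and the other RSL3 libraries lay above it. The mean was 114 ± 50.05 with RSL3 and 66.4 ± 10.9 with RSL3+ID (SD, n = 3 per group). The log2 fold change was −0.69 with a 95% interval of −1.46 to 0.08 (adjusted p = 0.311). It was −0.38 without RSL3 library 2 and −1.04 without RSL3 library 1. Its partner genes had smaller estimates. BMAL1 (ARNTL in the files) had 460.2, 431 and 497 normalised counts with RSL3 and 469.9, 315 and 465 with RSL3+ID (log2 fold change −0.17, adjusted p = 0.684). BMAL2 (ARNTL2), a paralogue of BMAL1, had a log2 fold change of −0.16 (adjusted p = 0.696), and NPAS2, which can stand in for CLOCK, one of −0.40 (adjusted p = 0.538).

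Of the PERIOD genes, PER3 was the furthest apart between groups. PER3, on chromosome 1 (7784320 to 7845177, plus strand), had 205, 251 and 231 normalised counts with RSL3 and 145, 96.1 and 159.8 with RSL3+ID. Every RSL3+ID library lay below the lowest RSL3 library. The mean was 229 ± 23.3 with RSL3 and 134 ± 33.3 with RSL3+ID, 1.74-fold lower on the log2 scale of the fit. On that scale the difference was −0.80 (SE 0.25, 95% interval −1.35 to −0.26), with an adjusted p of 0.114.

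PER2, on chromosome 2 (238244038 to 238290102, minus strand), encodes the PERIOD protein whose loss shortens or stops the rhythm in mice. It had 85.8, 112 and 83.6 normalised counts with RSL3 and 70.8, 59.5 and 55.8 with RSL3+ID. The groups did not overlap, but the gap from 83.6 down to 70.8 was smaller than the spread within the RSL3 group. The mean was 93.7 ± 15.5 with RSL3 and 62.0 ± 7.78 with RSL3+ID, with a log2 fold change of −0.58 (95% interval −1.21 to 0.05, adjusted p = 0.297).

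PER1, on chromosome 17 (8140472 to 8156506, minus strand), is also an immediate target of cAMP and glucocorticoid signals. It had 1128, 1201 and 991 normalised counts with RSL3 and 1277, 707 and 1039.8 with RSL3+ID. The highest and the lowest of the 6 values were both in RSL3+ID, so the groups overlapped fully. On the log2 scale the groups differed by −0.17 (95% interval −0.62 to 0.27, adjusted p = 0.690). That value turned to 0.063 when RSL3+ID library 2 was left out (adjusted p = 0.854). The log2 ratio of PER3 to PER1 was −2.46, −2.25 and −2.09 with RSL3 and −3.13, −2.86 and −2.69 with RSL3+ID. The difference was −0.63 and the groups did not overlap, which gave an exact permutation p of 0.1, 2-sided, the smallest that 3 against 3 libraries allow (0.15 adjusted over the 3 ratios computed). These ratios were chosen after the values were seen, and the adjustment over them does not account for that choice.

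**Figure D2:**
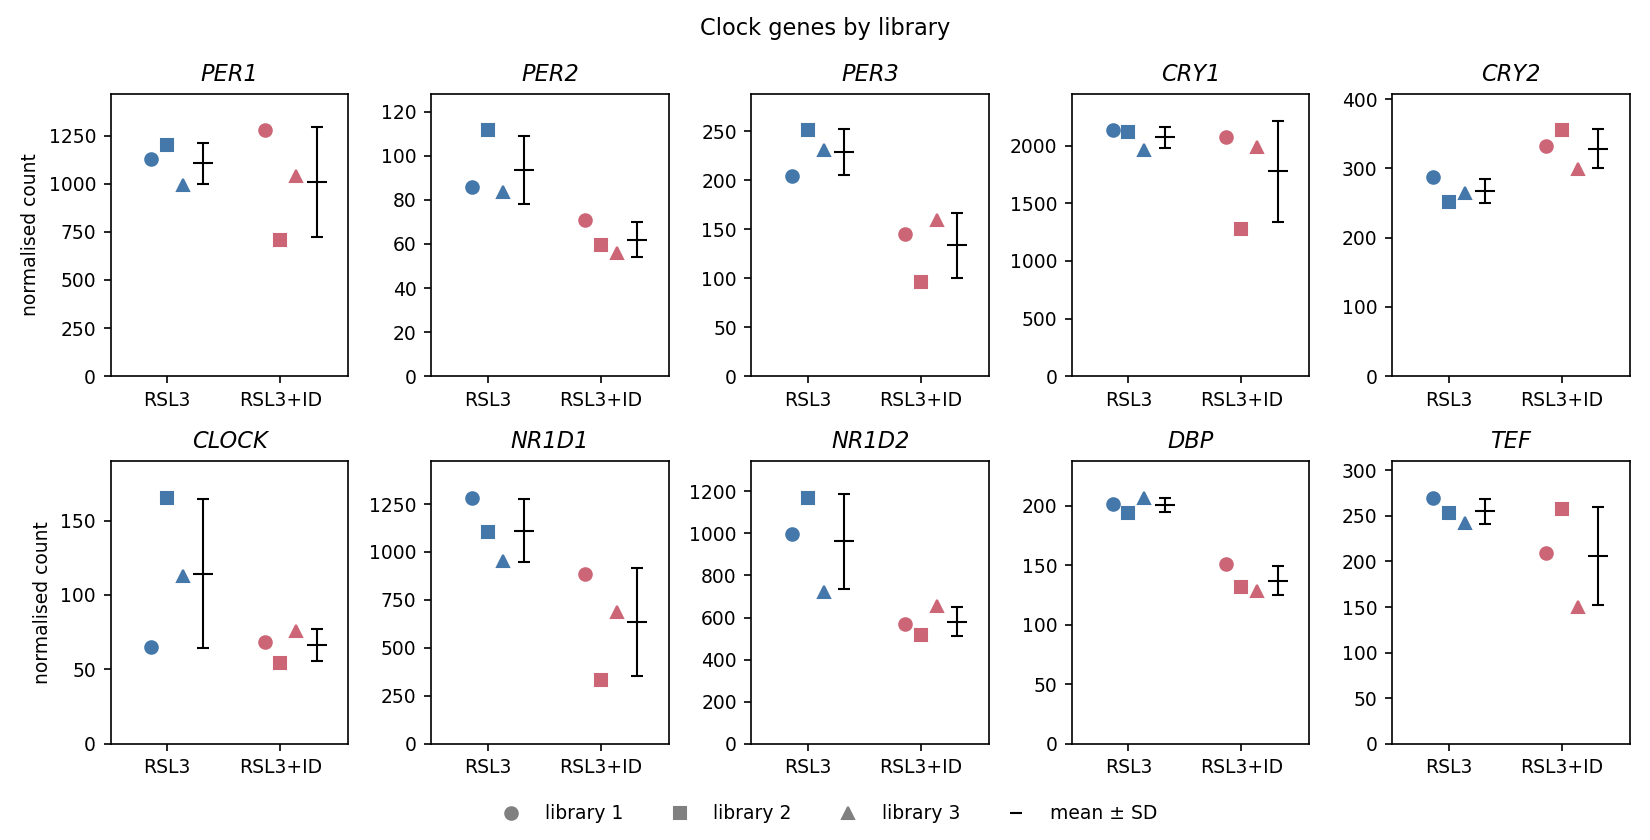
Normalised counts of the 10 clock genes in each library (points, shaped by library number, which is not known to pair the groups) with the mean and SD of 3 libraries beside them. PER2, PER3, NR1D1, NR1D2 and DBP have all RSL3+ID points below all RSL3 points, CRY2 has them above, and in PER1, CRY1 and NR1D1 RSL3+ID library 2 lies well below the other libraries of its group.

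The cryptochromes, the partners of PER in repression, lay on opposite sides. CRY1, on chromosome 12 (106991364 to 107093829, minus strand), had 2133, 2121 and 1966 normalised counts with RSL3 and 2074, 1274 and 1985 with RSL3+ID. RSL3+ID libraries 1 and 3 lay within the RSL3 range, and library 2 lay far below it. The log2 fold change was −0.25 (95% interval −0.65 to 0.14, adjusted p = 0.480), and −0.03 without RSL3+ID library 2.

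CRY2, on chromosome 11 (45847118 to 45883248, plus strand), had 287, 252 and 264 normalised counts with RSL3 and 332, 355 and 299 with RSL3+ID. All RSL3+ID libraries lay above all RSL3 libraries, and library 2, the lowest of its group for CRY1, was the highest for CRY2. The gap from 287 up to 299 was smaller than the SD of the RSL3 group. The mean was 268 ± 17.6 with RSL3 and 329 ± 27.8 with RSL3+ID, with a log2 fold change of 0.29 (95% interval −0.12 to 0.70, adjusted p = 0.420). The log2 ratio of CRY2 to CRY1 was −2.89, −3.07 and −2.89 with RSL3 and −2.64, −1.84 and −2.72 with RSL3+ID. The difference of 0.55 had an exact permutation p of 0.1, 2-sided (0.15 adjusted over the 3 ratios), again the smallest the design allows. This ratio too was chosen after the values were seen, and the adjustment does not account for that choice. The difference was 0.27 without RSL3+ID library 2.

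NR1D1 and NR1D2 encode the REV-ERB repressors. With all libraries NR1D1 had the lowest log2 fold change of the 10, a rank it did not keep without RSL3+ID library 2 or without RSL3 library 1. NR1D1, on chromosome 17 (40092787 to 40100725, minus strand), had 1282, 1102 and 951 normalised counts with RSL3 and 886, 331 and 688 with RSL3+ID. All RSL3+ID libraries lay below all RSL3 libraries, and library 2 held less than the others of its group. The gap from 951 down to 886 was smaller than the SD of the RSL3 group. The mean was 1112 ± 166 with RSL3 and 635 ± 281 with RSL3+ID, 1.88-fold lower. The log2 fold change was −0.91 (SE 0.29, 95% interval −1.54 to −0.28, adjusted p = 0.119). It came to −0.50 with an adjusted p of 0.0636 without RSL3+ID library 2 and to −1.21 without RSL3+ID library 1. Over all alternatives the adjusted p ran from 0.0636 to 0.371.

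NR1D2, on chromosome 3 (23945260 to 23980618, plus strand), had 995, 1169 and 721 normalised counts with RSL3 and 568, 517 and 653 with RSL3+ID. The RSL3+ID libraries were again all lower, and here library 2 stood close to its group. The gap from 721 down to 653 was again smaller than the SD of the RSL3 group. The mean was 962 ± 226 with RSL3 and 579 ± 68.4 with RSL3+ID, 1.63-fold lower. The log2 fold change was −0.71 (SE 0.20, 95% interval −1.13 to −0.28, adjusted p = 0.0816). Without RSL3+ID library 2, NR1D2 passed, with −0.63 and an adjusted p of 0.0364, within a range of 0.0364 to 0.331 over all alternatives. The log2 ratio of NR1D1 to NR1D2 differed by −0.20 between groups (exact permutation p = 0.7, 2-sided, 0.7 adjusted), and its groups overlapped. It turned to 0.13 without RSL3+ID library 2.

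In the authors' deposited table of changed genes both REV-ERB genes were listed, and none of the other 8 clock genes was. That table holds 895 genes, against 35019 identifiers in the expression table, of which 14188 passed the filter on low values. The authors' deposited table gives −0.81 on the log2 scale for NR1D1, with an SE of 0.277 and an adjusted p of 0.0483. For NR1D2 the authors' deposited table gives −0.73, with an SE of 0.213 and an adjusted p of 0.0157. The number of genes over which the authors adjusted is not given in the sources used here, and the calls of that table and of limma differ for both genes.

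Among the opposing receptors that activate through the same element as REV-ERB, RORA had a log2 fold change of −0.04 (adjusted p = 0.967) at a mean of 54.3 ± 20.2 normalised counts with RSL3. RORB had no read in any library and was not tested. BMAL1, the gene that REV-ERB receptors are known to repress, had overlapping groups, as given above.

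DBP and TEF encode the PAR bZIP activators of D-box genes. DBP, on chromosome 19 (48630030 to 48637438, minus strand), is among the most strongly rhythmic clock outputs in mouse tissues. It had 201, 194 and 206 normalised counts with RSL3 and 151, 132 and 128 with RSL3+ID. The groups were separate, and the coefficient of variation with RSL3 was 3.07%, against 43.8% for CLOCK. At 188 to 225 reads per RSL3 library, so small a spread lies below counting error. It therefore does not measure the precision of DBP. The mean was 201 ± 6.17 with RSL3 and 137 ± 12.3 with RSL3+ID, 1.46-fold lower. This was a log2 fold change of −0.55 (95% interval −1.03 to −0.08) with an SE of 0.22 and an adjusted p of 0.197.

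TEF, on chromosome 22 (41367333 to 41399326, plus strand), had 269.8, 253 and 243 normalised counts with RSL3 and 209, 258 and 150.2 with RSL3+ID. Library 2 of RSL3+ID lay within the RSL3 range and the other RSL3+ID libraries below it. The log2 fold change was −0.34 (95% interval −0.85 to 0.17, adjusted p = 0.455), and it came to −0.52 or −0.13 when library 2 or library 3 of RSL3+ID was left out. HLF, the third of these activators, had a mean of 9.75 ± 4.69 normalised counts with RSL3, and its log2 fold change of −0.05 (adjusted p = 0.978) had an interval from −1.76 to 1.66. NFIL3, which represses the same D-box genes, had a log2 fold change of −0.29 (adjusted p = 0.473).

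The libraries did not contribute evenly. Each value was set against the mean of its gene over the 6 libraries on the log2(normalised count + 1) scale. The median deviation of the 10 genes was 0.21, 0.34 and 0.12 in RSL3 libraries 1, 2 and 3 and −0.10, −0.53 and −0.16 in RSL3+ID libraries 1, 2 and 3. RSL3+ID library 2 was the lowest of the 6 for 6 clock genes, RSL3+ID library 3 for 3 and RSL3 library 2 for none but CRY2. Within its group, RSL3+ID library 2 was the lowest for 6 of the 10, against 37.2% of all tested genes. RSL3 library 3 was likewise the lowest of its own group for 6 of the 10, against 35.9% of all. The next counts leave out RSL3+ID library 2. Without RSL3+ID library 2, 6 clock genes had all RSL3+ID values below all RSL3 values, with TEF added to the 5, where 20.4% of all tested genes did. At an unadjusted p under 0.05, 5 clock genes were then lower (PER3, NR1D1, NR1D2, DBP and TEF), where 12.2% of all tested genes were. Without RSL3 library 3 that count was 3, against 8.57% of all, and without RSL3+ID library 3 it was 3, against 8.36%. It was 4 without RSL3 library 1, RSL3 library 2 or RSL3+ID library 1, against 6.35%, 6.63% and 9.47% of all.

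**Figure D3:**
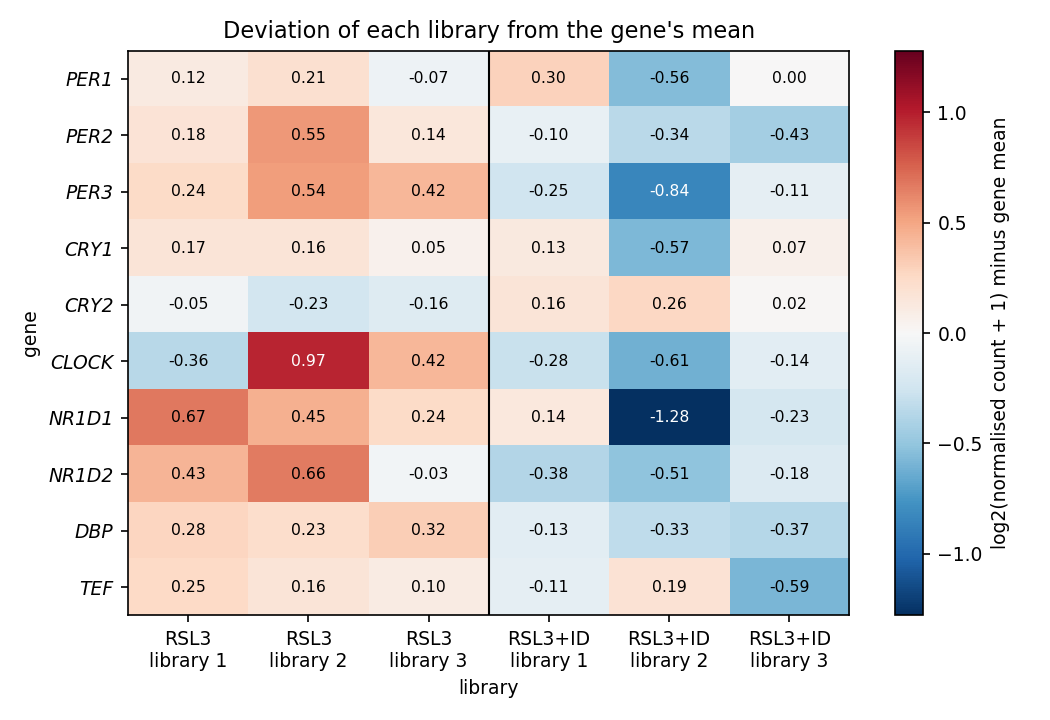
Deviation of each library from the mean of the gene over the 6 libraries, in log2(normalised count + 1), for the 10 clock genes; red is above and blue below the mean. NR1D1 in RSL3+ID library 2 is the lowest cell at −1.28, CLOCK in RSL3 library 2 the highest at 0.97, and CRY2 is the only gene with RSL3 cells all below and RSL3+ID cells all above 0.

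Levels can be compared between genes only per length, so normalised counts were divided by the length in kb of the principal transcript in GENCODE 29. With RSL3 the order of mean levels per kb was CRY1 at 635, NR1D1 at 401, PER1 at 235, NR1D2 at 183 and DBP at 90.0. It went on with CRY2 at 63.7, TEF at 58.1, PER3 at 36.9, PER2 at 14.7 and CLOCK at 11.1. The ranges of the 3 RSL3 libraries overlapped between the neighbours PER1 and NR1D2, CRY2 and TEF, and PER2 and CLOCK, and between no other neighbours in this order.

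With RSL3+ID the levels per kb were 544 for CRY1, 229 for NR1D1, 214 for PER1, 110 for NR1D2 and 61.4 for DBP. They were 78.2 for CRY2, 46.8 for TEF, 21.5 for PER3, 9.71 for PER2 and 6.44 for CLOCK. The means of DBP and CRY2 changed places, with RSL3+ID ranges of 57.4 to 67.7 for DBP and 71.2 to 84.4 for CRY2 that did not overlap. This exchange and both orders were computed for principal transcripts only. DBP has 2229 bases in that transcript and 6544 over all its annotated exons, and CRY2 has 4204 and 6200. With RSL3, CRY2 had the higher count and has fewer exon bases, so per exon base it lay above DBP there too. In the RSL3+ID order the ranges overlapped between the neighbours NR1D1 and PER1 and between DBP and TEF, and between no others. Within each family of paralogues the order was the same in both groups, with PER1 above PER3 above PER2, CRY1 above CRY2, and NR1D1 above NR1D2.

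**Figure D4:**
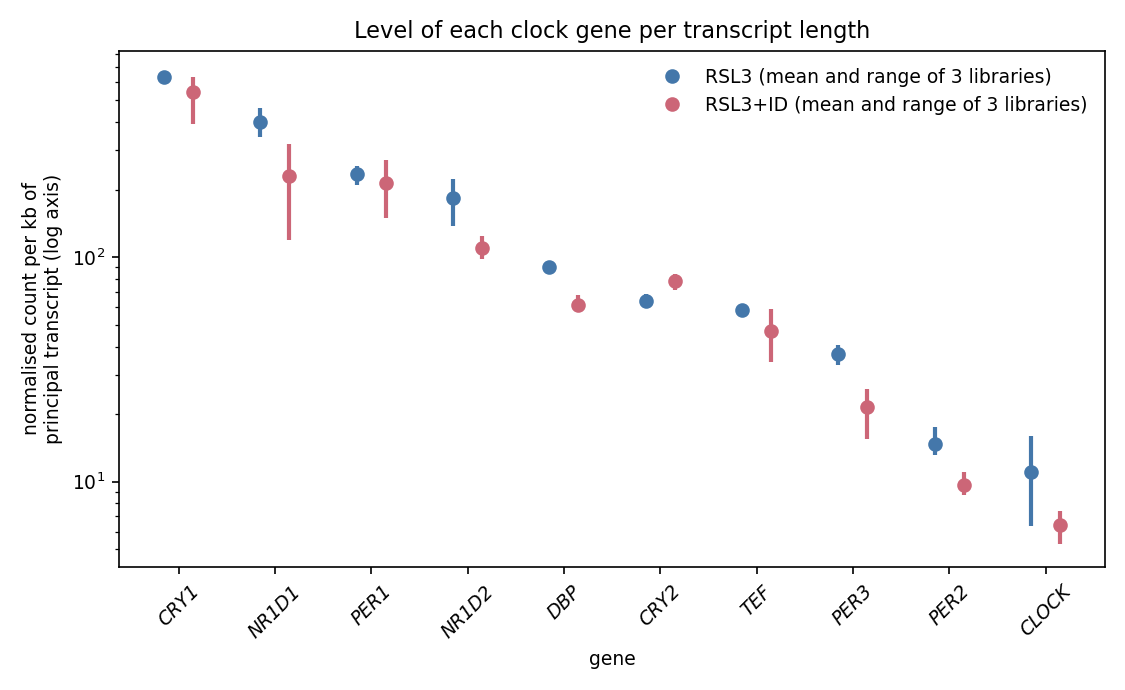
Level of each clock gene as normalised count per kb of its principal transcript, on a log axis; points are means and lines the range of 3 libraries per group. CRY1 is the highest at 635 with RSL3 and CLOCK the lowest at 11.1, and CRY2 is the only gene whose RSL3+ID mean is the higher one.

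A second list held 35 other clock genes, of which 32 were tested. None passed the adjusted p. At an unadjusted p under 0.05, 8 were lower in RSL3+ID and none was higher, where 9.71% of all tested genes were lower. The RSL3+ID libraries lay below all RSL3 libraries for 10 (12.6% of all tested genes) and above them for 1 (12.8% of all). The list had 22 negative and 10 positive estimates, with a median log2 fold change of −0.19. BHLHE40, an E-box repressor also called DEC1, had the largest fold change among those named by rule. It had 2068, 1882 and 1412 normalised counts with RSL3 and 1237, 658 and 1190.0 with RSL3+ID, and the log2 fold change was −0.83 with an SE of 0.23 (adjusted p = 0.0845). Its paralogue BHLHE41 had 0.08 (adjusted p = 0.891). Without RSL3+ID library 2, 2 of the 32 tested (6.25%) passed as lower and none as higher, where 4.11% of all tested genes were lower. They were BHLHE40 at −0.54 (adjusted p = 0.0333) and NCOR1, the corepressor that REV-ERB receptors recruit, at −0.82 (adjusted p = 0.0164). With all libraries NCOR1 had 334, 371 and 324 normalised counts with RSL3 and 204, 217 and 183 with RSL3+ID, and its log2 fold change was −0.77 (adjusted p = 0.0669).

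The authors' deposited table holds 895 genes, against 35019 identifiers in the expression table, of which 14188 passed the filter on low values. It lists 4 of these other clock genes, all lower. They are BHLHE40 at −0.80 (adjusted p = 0.0181), NCOR1 at −0.77 (adjusted p = 0.0142) and the genes of the deacetylase SIRT1 at −0.71 (adjusted p = 0.0219) and the acetyltransferase CREBBP at −0.62 (adjusted p = 0.0387) in the authors' deposited table. SIRT1 and CREBBP were named after their values were seen. The kinase genes that set the stability of PER and CRY had smaller estimates. Furthest from 0 were PRKAA2 at −0.59 (adjusted p = 0.355), with groups that did not overlap, and PRKAA1 at −0.34 (adjusted p = 0.377). Both were named after their values were seen. CSNK1D, casein kinase 1δ, had a log2 fold change of −0.28 (adjusted p = 0.280) with groups that did not overlap, and CSNK1E one of 0.02 (adjusted p = 0.959). GSK3B, whose kinase indirubin inhibits, had one of −0.28 (adjusted p = 0.382).

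Of 17 tested genes on a list of clock outputs, 2 rose and none fell, where 1.08% of all tested genes rose and 0.832% fell. The list does not separate outputs that the clock activates from those it represses. Without RSL3+ID library 2, 4 rose, with NAMPT (0.61, adjusted p = 0.00623) and CCND1 (0.44, adjusted p = 0.0398) added, and WEE1 fell (−0.58, adjusted p = 0.0305). Of all tested genes 5.23% rose and 4.11% fell in that fit. Without any other single library none of the 17 passed. CDKN1A, the cell cycle inhibitor p21, rose from 18411 ± 437 to 32453 ± 2823 normalised counts, a log2 fold change of 0.81 with an SE of 0.12 (adjusted p = 0.0172). TSC22D3, the glucocorticoid-induced leucine zipper, had 1810.0, 1765 and 1649 normalised counts with RSL3 and 3300.1, 2677 and 3339 with RSL3+ID, and rose by 0.83 on the log2 scale with an SE of 0.14 (adjusted p = 0.0279). Both genes also answer to other inputs, p53 for CDKN1A and the glucocorticoid receptor for TSC22D3. WEE1, a mitotic kinase gene with E-boxes in mouse that was named after its values were seen, had a log2 fold change of −0.68 (adjusted p = 0.0686) and is listed as lower in the authors' deposited table at −0.68 (adjusted p = 0.0130). The median log2 fold change of the list was 0.11, with 11 positive and 6 negative estimates.

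The genes whose pattern over the 6 libraries was most like that of NR1D2, the clock gene with the smallest p, were LYSMD3, DLG1 and PAN3. Likeness was the root-mean-square difference of centred log2(normalised count + 1) values, which was 0.0442, 0.0575 and 0.0791. None of the 3 passed the adjusted p (0.111, 0.0803 and 0.102).

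Some reads could belong to neighbours, because the strand setting of the authors' counting is not given and reads of overlapping exons then cannot be told apart. NR1D1 shares 263 bases, 9.49% of its exon bases, with THRA on the opposite strand, which encodes thyroid hormone receptor α. THRA had 256, 199 and 219 normalised counts with RSL3 and 164, 138 and 204 with RSL3+ID, and its log2 fold change was −0.42 (adjusted p = 0.342). Its share in the NR1D1 counts was not tested. DBP shares 661 bases (10.1%) with SPHK2, a sphingosine kinase gene, whose log2 fold change was 0.05 (adjusted p = 0.919). SPHK2 had the higher normalised counts, with means of 891 with RSL3 and 939 with RSL3+ID, against 201 and 137 for DBP. PER3 shares 868 bases (10.7%) with UTS2, which had no read outside RSL3+ID library 2, where it had 4, and 482 bases with an antisense gene, Z98884.1, that has no values here. CLOCK shares 76 bases (0.646%) with TMEM165, whose log2 fold change was 0.22 (adjusted p = 0.470). TMEM165 had means of 1129 with RSL3 and 1329 with RSL3+ID, against 114 and 66.4 for CLOCK. The share of SPHK2 in the DBP counts and of TMEM165 in the CLOCK counts was not tested. PER1, PER2 and CRY1 share 108, 188 and 94 bases with genes that, like Z98884.1, have no values here. CRY2, NR1D2 and TEF share no exon bases with another annotated gene.

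The markers of cell type were mixed. KRT7, KRT8, KRT17 and KRT18 were abundant, and the basal cell genes KRT5 and TP63 had at most 5.28 and 2.89 normalised counts. The epithelial adhesion genes CDH1 and EPCAM were low, at means of 3.69 ± 3.07 and 33.1 ± 7.67 normalised counts with RSL3. Of 7 mesenchymal markers, the highest with RSL3 were VIM at 8616 ± 482, CDH2 at 1288 ± 51.2 and COL1A1 at 1222 ± 112. The others were PDGFRB at 389 ± 52.7, COL1A2 at 80.4 ± 25.2, PDGFRA at 12.8 ± 7.65 and COL3A1 at 2.06 ± 3.58. Of 6 tested epithelial markers 1 fell, KRT18, by 0.66 on the log2 scale (adjusted p = 0.0361). The summed level of the 10 epithelial markers was 54447 to 58315 with RSL3 and 42745 to 53587 with RSL3+ID. That of 7 mesenchymal markers, led by VIM, was 10857 to 12207 and 6494 to 12748, lowest in RSL3+ID library 2. Of 5 immune markers, PTPRC had at most 2.07 normalised counts and CD3E had no read, but CD14 had 413 to 559 with RSL3 and 519 to 835 with RSL3+ID (log2 fold change 0.50, adjusted p = 0.227). CD14 rose by 0.72 without RSL3+ID library 2 (adjusted p = 0.0130). The part of these levels in the clock gene differences was not tested. The libraries held 15206183 to 18506637 reads each on the genes of the table. A count of 0 allows up to 3 reads, which is 0.162 to 0.197 reads per 1000000, for counting error only.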

How the data were processed

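RNA of 6 BEAS-2B libraries, 3 per group, was sequenced from NEBNext Ultra libraries. Groups follow the treatment field of the labels. All 6 titles start with RSL3+M, where M is not defined, and columns of the expression table were tied to groups by name alone. Whether replicates were separate cultures is not stated, so a p-value here measures only how far these libraries spread, and that spread may be technical. Per the submitters' processing notes, DESeq2 1.30.0, StringTie 2.1.5, HISAT2 2.2.1, Trimmomatic 0.39 and GRCh38 were used. For the counter, its strand setting and the annotation nothing is given in the sources used here.

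The expression table that the authors deposited is in log2 values with a shared minimum of 6.04, the form of the variance-stabilising transform of DESeq2. Inverting it gave reads over size factor: whole reads, within 0.001, for 100.0% of values. The means equalled the authors' deposited base mean (unit signal) within a relative difference of 2.46e-14 for 894 genes of their table of changed genes. That table also holds log2 fold changes, their standard errors, a test statistic (a score) and p-values for 895 genes, per the file headers. Repeats of an identifier (214) were left out.

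Genes with a mean normalised count of at least 10 were tested on the log2(normalised count + 1) scale in R 4.3.3 with the package limma 3.58.1 (trended, robust, 2-sided, Benjamini-Hochberg over 14188 genes). Fold changes on this scale understate those of low genes. All adjusted p-values come from this test unless the authors' table is named. The test was also run on simulated counts with an assumed spread and no deviating library. That run does not measure the error of the test on these data. Alternatives changed the scaling, pseudocount, filter and model, or left out a library.

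Named genes are the 10 clock genes; from a list of other clock genes, core ones and any that pass; from output and input lists, those that pass; overlapping genes; and 3 pattern neighbours. Some genes that this rule names are not reported here. The members and lists were chosen with earlier results of these data known. Gene positions are from GENCODE 29 (34996 of 35019 identifiers matched) and promoters from RefSeq (GRCh38.p14).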

Additional observations from a re-analysis of the deposited data

How the results depend on the processing

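The 10 fold changes were recomputed under 18 alternatives each. Of 180 values, 177 kept their direction and side of the threshold. NR1D2 passed with the length and GC trend removed (−0.68), which made 1 of the 10 lower, and without RSL3+ID library 2. Leaving out 1 library moved NR1D2 between −0.90 and −0.55 and PER1 between −0.36 and 0.063 (reversed without RSL3+ID library 2, adjusted p between 0.362 and 0.898 over all alternatives). It moved the clock genes that passed as lower between 0 and 1, those with a positive estimate between 1 and 2, other clock genes that passed as lower between 0 and 2, and all genes called higher between 0 and 742 and lower between 0 and 583. On the deposited log2 values, which compress low genes, the median of the 10 was −0.31. Over all genes, 0 were higher and 0 lower without trend or robust step, 90 and 217 with scaling to total reads (29.3% higher against 56.5%, median of all genes −0.11), and 71 lower with upper-quartile scaling (68.0% higher). With the replicate block, 0 genes were higher and 0 lower. Same-numbered libraries did not deviate together (correlations of −0.00246, −0.246 and −0.180). Differently numbered ones had correlations of −0.186 to 0.307. Such values cannot show whether cultures were set up in pairs, which is not stated. The causes were not tested. With 3 libraries per group, the 95% intervals of CRY2 and TEF, among others, held 0.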

Other observations

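PER1 also takes input from cAMP signalling, and 14 genes of that path were tested. CREB1, the factor that binds the cAMP response element, fell. It had 439.6, 513 and 376 normalised counts with RSL3 and 222, 259.7 and 247 with RSL3+ID, all RSL3+ID libraries below all RSL3 libraries, a log2 fold change of −0.86 with an SE of 0.19 (adjusted p = 0.0490). No other gene of the list passed in limma, where 1.08% of all tested genes rose and 0.832% fell, and 5 of the 14 estimates were positive and 9 negative. Without RSL3+ID library 2, when 5.23% of all tested genes rose and 4.11% fell, 3 genes of the list rose and 2 fell. CREM (0.59, adjusted p = 0.0194), NR4A2 (0.53, adjusted p = 0.0339) and FOS (0.55, adjusted p = 0.0480) rose. CREB1 (−0.90, adjusted p = 0.00787) and NR4A1 (−0.58, adjusted p = 0.0213) fell. Without any other single library none of the 14 passed. Named after its values were seen, NR4A1, an immediate early nuclear receptor gene, had a log2 fold change of −0.92 (adjusted p = 0.0816) and −0.87 in the authors' deposited table (adjusted p = 0.0138). Of 7 tested genes of the glucocorticoid input, TSC22D3 rose, as above, and none fell. SGK1 rose as well without RSL3+ID library 2 (0.71, adjusted p = 0.0149). Without any other single library none of the 7 passed.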
